A study of Mus musculus with 72 samples.

Results

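The daily time course of the soleus (SOL) of mice without Bmal1 in muscle fibres was taken from 18 of the 72 arrays of the study, and every named gene, 20239 in all, was followed across it. The arrays were chosen by their labels alone, as SOL of the knockout, called mKO, at Zeitgeber time (ZT) 0, 4, 8, 12, 16 and 20 h, with 3 animals at each time. The mKO animals carried a floxed Bmal1 gene and Mlc1f-Cre, a Cre recombinase driven by the promoter of a fast myosin light chain. They are compared with 18 SOL arrays of floxed littermates without Cre (Ctrl) and, inside the mKO animals, with 18 arrays of the tibialis anterior (TA). All were male C57BL/6 mice of 5 months, kept on chow ad libitum under 12 h of light and 12 h of darkness, with ZT0 as the time of lights on and ZT12 that of lights off. No animals with Cre and intact Bmal1 were included. The promoter is that of a fast fibre gene, SOL is rich in slow fibres, and cells other than fibres are not the target of the deletion. Activity of the promoter in such cells was not measured. The labels give no measure of how complete the deletion was.

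The circadian clock of a cell is a loop of transcription and translation. BMAL1, made from the gene listed here as Arntl, pairs with CLOCK or NPAS2 and drives the genes of the Period and Cryptochrome proteins, which inhibit it, and those of the REV-ERB receptors (Nr1d1, Nr1d2), which repress Arntl. Muscle also receives daily signals from outside, among them glucocorticoids, feeding and fasting, body temperature and activity. The question of the comparison is which daily changes of transcripts remain when the fibres lack Bmal1.

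The arrays of the group were alike in scale. Their medians lay between 6.70 and 6.79 on the log2 scale, and no pair of arrays correlated above 0.996 across genes, so none was a copy of another. Myh7, the slow myosin heavy chain, had a median of 13.1 in mKO SOL and 7.26 in mKO TA, and the slow troponin Tnni1 had 13.1 in mKO SOL and 6.79 in mKO TA, as the muscle labels state. Myh4, the fastest myosin, ranged from 7.67 to 12.7 among the mKO SOL arrays, with a median of 11.8, against a median of 13.7 in mKO TA. The identifiers of the animals fall into series named BM3, BM2 and BM2*, whose meaning the labels do not give. In mKO SOL, all animals at ZT0, ZT4 and ZT16 and 2 of 3 at ZT8 were BM3, while all at ZT12 and ZT20 and 1 at ZT8 were BM2 or BM2*. Series and time of day are therefore largely confounded. The number of arrays, not a count of reads, limits the precision of every value below.

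Daily change was widespread in mKO SOL. A cosine of 24 h was called for 1007 of the 20239 genes (4.98%; limma moderated F test, Benjamini-Hochberg adjusted p under 0.05), and 4157 genes had an unadjusted p under 0.05. Taking time as a factor with 6 levels, which allows any shape, called 398 genes (1.97%), of which 371 were also called by the cosine. No gene departed from a single cosine after adjustment (0 of 20239, 0%; 949 at an unadjusted p under 0.05, smallest adjusted p 0.351). The fitted amplitude, the distance on the log2 scale from the mean level to the peak, had a median of 0.22 among called genes, with a range of 0.12 to 1.40, and of 0.08 among all genes. The median called gene was 1.36-fold higher at its peak than at its trough, and 64 called genes varied by more than 2-fold. With the BM3 animals alone, 11 arrays at 4 of the times, 203 genes were called (1%), and with the other 7 arrays, at 3 of the times, 104 genes (0.514%).

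Most core clock genes cycled in mKO SOL. Of the 15 measured members of the core loop, 12 were called by the cosine, 80% against 4.98% of all genes, and Cry2, Rorb and Bhlhe40 were not. The corresponding counts were 13 in Ctrl SOL, where 4.47% of all genes were called (904 genes), and 8 in mKO TA, where 1.31% were called (266 genes). Of 27 distinct genes of the core and output lists, 21 were called, and 15 of those 21 were called with the BM3 animals alone, the lost ones being Clock, Per1, Cry1, Rora, Bhlhe41 and Tsc22d3.

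Arntl, the targeted gene, had log2 signals of 8.53, 8.38 and 8.40 at ZT0, 8.34, 8.44 and 8.21 at ZT4, 7.75, 7.55 and 7.76 at ZT8, 7.62, 7.11 and 7.27 at ZT12, 7.08, 7.68 and 7.76 at ZT16 and 8.14, 8.23 and 8.02 at ZT20 in mKO SOL. In Ctrl SOL it had 9.09, 8.97 and 9.27 at ZT0, 8.77, 8.76 and 8.96 at ZT4, 7.53, 7.15 and 7.18 at ZT8, 6.55, 6.57 and 6.55 at ZT12, 7.29, 6.68 and 6.93 at ZT16 and 8.05, 8.22 and 8.10 at ZT20. The genotypes did not overlap at ZT0, ZT4, ZT8 and ZT12, with mKO below Ctrl in the morning and above it from ZT8 to ZT12, and they overlapped at ZT16 and ZT20. The fitted amplitude was 0.59 ± 0.06 (SE) in mKO SOL and 1.34 ± 0.06 in Ctrl SOL, with peaks at 0.70 h and 0.86 h, and the rhythms differed (limma, adjusted p 1.33e-05). The mean level over the day was 7.90 in mKO and 7.81 in Ctrl. The position of its probes relative to the deleted exon was not at hand, so the level is no check of the deletion. The signal of a whole muscle also sums fibres and other cells, and fewer cells of a type and less RNA per cell cannot be told apart in it.

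**Figure D1:**
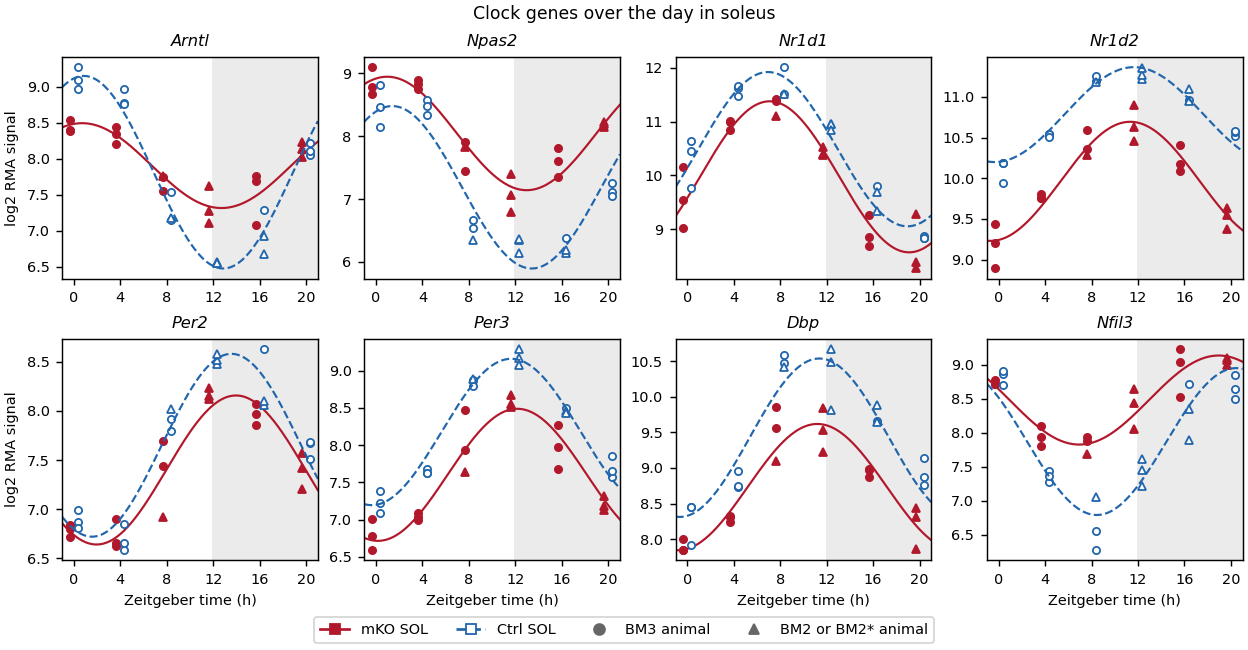
Log2 RMA signal against Zeitgeber time for 8 clock genes in soleus, with 1 point per animal, filled red for mKO and open blue for Ctrl, circles for BM3 and triangles for BM2 or BM2* animals, and the fitted 24 h cosines as lines (solid mKO, dashed Ctrl). Darkness is shaded. All 8 genes vary over the day in mKO, and the wave of Arntl is flatter in mKO (amplitude 0.59) than in Ctrl (1.34).

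The partners of BMAL1 peaked with Arntl. Npas2 averaged 8.85 ± 0.22 at ZT0 and 7.08 ± 0.30 at ZT12 in mKO SOL (SD, n = 3), an amplitude of 0.90 ± 0.07 (SE) with a peak at 0.97 h, against 1.29 in Ctrl. Clock had an amplitude of 0.18 ± 0.03 in mKO SOL and 0.41 in Ctrl, with peaks at 2.49 h and 2.23 h. For neither gene was the difference in rhythm called, with an adjusted p of 0.836 for Npas2 and 0.125 for Clock. The difference in amplitude, mKO minus Ctrl, was -0.39 ± 0.12 for Npas2 and -0.23 ± 0.05 for Clock.

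The deepest wave belonged to a nuclear receptor of the loop. Nr1d1, encoding REV-ERBα, had 10.15, 9.53 and 9.03 at ZT0, 11.01, 10.99 and 10.84 at ZT4, 11.41, 11.39 and 11.10 at ZT8, 10.40, 10.53 and 10.37 at ZT12, 9.26, 8.69 and 8.85 at ZT16 and 8.39, 8.27 and 9.27 at ZT20 in mKO SOL. Every value at ZT8 lay above every value at the other times. Its amplitude of 1.40 ± 0.09, a 7.00-fold range from trough to peak, was the largest of the 20239 genes, and it was 1.43 in Ctrl, with a difference of -0.03 ± 0.13. Nr1d2, encoding REV-ERBβ, peaked later, at 11.3 h, with an amplitude of 0.73 in mKO SOL and 0.58 in Ctrl. Rora, an activator that competes with the REV-ERBs, had a shallow wave of 0.19 with a peak at 13.4 h.

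Among the inhibitors of the loop, the Period genes peaked around lights off. Per1, Per2 and Per3 had their peaks at 13.0, 13.9 and 12.2 h in mKO SOL, with amplitudes of 0.89, 0.76 and 0.89, against 1.11, 0.93 and 0.98 in Ctrl. Per2 averaged 8.17 ± 0.06 at ZT12 and 6.73 ± 0.15 at ZT4 in mKO SOL (SD, n = 3), and all values at ZT12 and ZT16 lay above all values at the other times. Cry1 peaked late in the night, at 19.9 h, with an amplitude of 0.21 ± 0.04, and its adjusted p of 0.022 passed 0.05 no longer without mKO ZT8 replicate C or without mKO ZT20 replicate A. Cry2 had an amplitude of 0.16 ± 0.06 in mKO SOL and 0.38 in Ctrl and was called in Ctrl alone, with a difference of -0.22 ± 0.09 that was not called (adjusted p 0.916). Ciart, a repressor of CLOCK and BMAL1, peaked before lights off, at 9.78 h, and had an amplitude of 0.80 in mKO SOL and 1.36 in Ctrl. Bhlhe41, a further repressor that binds E-boxes, had 0.53 in mKO SOL and 0.75 in Ctrl. Over the core list, the amplitude was larger in mKO than in Ctrl for 2 of 15 genes, against 11035 of 20239 genes tested, and its median was 0.59 in mKO and 0.75 in Ctrl.

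Most of the genes driven by the clock were called too. Of 13 measured output genes, Ciart among them again, 10 were called (76.9%, against 4.98% of all genes) and Nampt, Leo1 and Tspo2 were not. The PAR bZIP activators Dbp, Tef and Hlf, which bind D-boxes, peaked at 11.2, 11.7 and 12.2 h in mKO SOL, with amplitudes of 0.89, 0.38 and 0.59. Nfil3, the repressor at the same sites, peaked at 18.9 h with an amplitude of 0.65, against 20.5 h and 1.08 in Ctrl. Its trough was shallower in mKO, with a mean of 7.84 ± 0.13 at ZT8 (SD, n = 3), and the difference in rhythm was not called (adjusted p 0.277). The cell cycle kinase gene Wee1 had an amplitude of 0.76 with a peak at 13.9 h, and Usp2, a deubiquitinase of clock proteins, had 0.46 with a peak at 14.8 h. The tetraspanin gene Tspan4 had 0.54 and Coq10b, of coenzyme Q function, 0.38. Nampt, which makes an NAD precursor, had an amplitude of 0.07 ± 0.04 in mKO SOL and 0.01 in Ctrl.

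Promoter sequences are shown because CLOCK with BMAL1 binds the E-box CACGTG and the PAR bZIP factors bind the D-box TTATGTAA. Windows from 250 bases before to 50 after each start of transcription (RefSeq, GRCm38.p6) were at hand for 15651 of the genes and were searched on both strands. A CACGTG stood in the window of 9.47% of all genes, of 13.9% of the 783 called genes with a window, and of 7 of 24 core and output genes (29.2%). Called genes had slightly more windows each, 1.29 against 1.23. A TTATGTAA stood in 0.958% of all genes, in 0.894% of called genes and in 2 of 24 core and output genes (8.33%), Coq10b and Per3. The matches describe letters only, and no binding was measured. The core and output genes with a CACGTG, and 3 further genes as examples, are given 5′ to 3′ on the strand of the gene. The motif is in capitals, with 20 bases on each side. Further sites in Ciart and Tef, and those in Gadd45g, Insig1, Rcan1, Sgk1 and Slc41a3, are not printed.
Per1, chr11:69098763-69098808, plus strand: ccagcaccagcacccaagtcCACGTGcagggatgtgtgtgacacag
Cry1, chr10:85185089-85185134, minus strand: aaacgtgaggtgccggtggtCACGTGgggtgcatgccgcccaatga
Ciart, chr3:95882319-95882364, minus strand: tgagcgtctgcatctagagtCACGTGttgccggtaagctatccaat
Bhlhe41, chr6:145865548-145865593, minus strand: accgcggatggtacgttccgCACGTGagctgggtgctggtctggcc
Tef, chr15:81802526-81802571, plus strand: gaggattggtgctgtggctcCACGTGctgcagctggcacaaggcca
Tspan4, chr7:141476309-141476354, plus strand: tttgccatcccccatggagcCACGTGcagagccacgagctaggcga
Coq10b, chr1:55052672-55052717, plus strand: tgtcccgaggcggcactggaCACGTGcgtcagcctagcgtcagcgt
Otud1, chr2:19657657-19657702, plus strand: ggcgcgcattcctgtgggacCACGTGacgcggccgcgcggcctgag
Fzd9, chr5:135251110-135251155, minus strand: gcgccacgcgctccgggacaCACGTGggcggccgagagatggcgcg
Ppp1r3c, chr19:36736683-36736728, minus strand: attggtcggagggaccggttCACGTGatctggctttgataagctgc
Per3 held the D-box at 2 places, given with the motif in capitals, and the site of Coq10b is not printed.
Per3, chr4:151044843-151044890, minus strand: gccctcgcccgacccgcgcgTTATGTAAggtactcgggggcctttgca
Per3, chr4:151044796-151044843, minus strand: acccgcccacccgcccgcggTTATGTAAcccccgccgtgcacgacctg
The genes that carry these letters did not share a peak time. Fzd9 peaked at 0.86 h and Per1 at 13.0 h with the same 6 letters in their windows.

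Peak times in mKO SOL clustered late in the light phase. Of the 1007 called genes, 103 peaked from ZT0 to ZT6 (10.2%), 414 from ZT6 to ZT12 (41.1%), 243 from ZT12 to ZT18 (24.1%) and 247 from ZT18 to ZT24 (24.5%). In Ctrl SOL the shares of the 904 called genes were 16.9%, 33.1%, 24.4% and 25.6%. The fullest bin of 2 h in mKO SOL was ZT8 to ZT10, with 162 called genes (16.1%), against 10.2% of the peaks fitted to all genes.

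**Figure D2:**
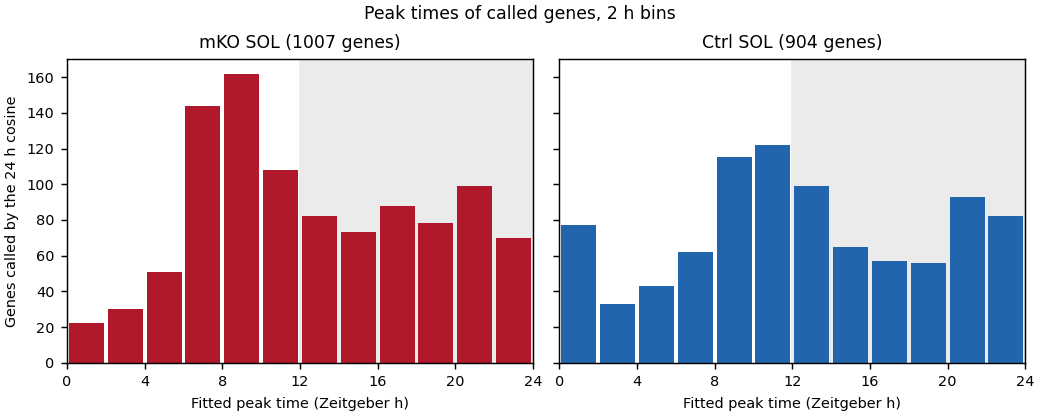
Number of genes called by the 24 h cosine in each 2 h bin of fitted peak time, on the left for mKO SOL (1007 genes) and on the right for Ctrl SOL (904 genes), with darkness shaded. The tallest bar is ZT8 to ZT10 in mKO, with 162 genes, and ZT10 to ZT12 in Ctrl, with 122 genes.

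Outside the clock, the largest amplitudes with peaks in the light phase belonged to metabolic and regulatory genes. Ucp3, a mitochondrial uncoupling protein, had 8.26, 7.49 and 7.42 at ZT0, 9.79, 8.52 and 8.20 at ZT4, 9.62, 9.65 and 10.27 at ZT8, 8.69, 9.09 and 9.22 at ZT12, 8.06, 8.25 and 7.98 at ZT16 and 7.54, 6.92 and 7.96 at ZT20 in mKO SOL. The values at ZT8 overlapped those at ZT4, through 1 animal, and at no other time. Its amplitude was 1.14 ± 0.13 in mKO SOL, with peaks at 8.52 h in mKO and 8.19 h in Ctrl, and the difference in amplitude, mKO minus Ctrl, was 0.13 ± 0.17. Angptl4, a secreted inhibitor of lipoprotein lipase, had 0.99 with a peak at 5.73 h, and Klhl38, a kelch-like protein, 0.92 with a peak at 7.63 h. Chac1, which degrades glutathione, peaked at 8.42 h with 0.86, and Cyp2e1, a cytochrome P450, at 10.5 h with 0.85. Pdcd4, an inhibitor of translation, had 0.68 ± 0.06 with a peak at 7.95 h, and Cecr2, a bromodomain protein, 0.71 ± 0.06 with a peak at 5.90 h. None of these 7 genes was called for a difference in rhythm between the genotypes, and their differences in amplitude, mKO minus Ctrl, ran from -0.14 ± 0.20 for Chac1 to 0.20 ± 0.21 for Angptl4.

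The gene with the smallest p of the whole time course peaked in the dark. Adamts1, a secreted metalloprotease, had 8.47, 8.19 and 8.42 at ZT0, 7.48, 7.80 and 7.88 at ZT4, 7.91, 7.93 and 7.83 at ZT8, 8.84, 8.90 and 8.65 at ZT12, 9.48, 9.37 and 9.51 at ZT16 and 9.24, 9.04 and 8.95 at ZT20 in mKO SOL. All values at ZT16 lay above all others. The amplitude was 0.88 ± 0.04 with a peak at 17.0 h (limma, adjusted p 6.57e-10), against 0.74 and 17.4 h in Ctrl. Otud1, a deubiquitinase, averaged 10.20 ± 0.26 at ZT16 and 7.64 ± 0.54 at ZT4 in mKO SOL (SD, n = 3), an amplitude of 1.29 ± 0.10 with a peak at 16.4 h, against 1.04 and 17.5 h in Ctrl. Slc46a3, a lysosomal transporter, had 0.35 with a peak at 15.6 h, and Mylk4, a kinase of the myosin light chain kinase family, had 0.91 ± 0.13 with a peak at 15.8 h. The level of Mylk4 was 8.57 in mKO SOL, 10.90 in Ctrl SOL and 11.94 in mKO TA, and the part of the spread in Myh4 among the mKO SOL arrays in its wave was not tested.

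The genes of 2 muscle microRNA loci were among the 10 largest amplitudes outside the clock. Mir133b, of a family of microRNAs known for high expression in muscle, averaged 9.58 at ZT0, 8.43 at ZT4, 7.80 at ZT8, 8.80 at ZT12, 9.64 at ZT16 and 9.21 at ZT20 in mKO SOL, with an amplitude of 0.81 ± 0.17 and a peak at 19.4 h. Mir133a-2 had its peak in the day instead, at 6.64 h, with an amplitude of 0.79 ± 0.18. The array reads RNA of the whole transcript, so these signals may come from the primary transcript and not the mature microRNA. The mature sequences of Mir133b (RefSeq, GRCm38.p6, chr1:20682797-20682818 and chr1:20682834-20682855, plus strand) are given with the seed, bases 2 to 8, in capitals, since the seeds differ between the arms.
miR-133b-5p: gCUGGUCAaacggaaccaaguc
miR-133b-3p: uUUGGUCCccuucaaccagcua
The adjusted p of the cosine was 0.0191 for Mir133b and 0.029 for Mir133a-2. The call of Mir133b was lost without mKO ZT8 replicate B, and that of Mir133a-2 in 7 of the 18 fits that leave out 1 mKO animal.

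Genes that respond to glucocorticoids, the adrenal hormones that rise before the active phase in mice, were often called in mKO SOL. Of 20 measured members, 12 were called (60%, against 4.98% of all genes), and 15 were called in Ctrl. Of the 12, 11 had peaks in the dark phase, where 490 of the 1007 called genes had theirs. Sgk1, a kinase induced by the hormone, had 8.06, 8.32 and 8.29 at ZT0, 7.57, 7.52 and 7.67 at ZT4, 7.49, 8.02 and 7.89 at ZT8, 8.64, 8.74 and 8.96 at ZT12, 8.81, 8.79 and 8.87 at ZT16 and 8.53, 8.46 and 8.64 at ZT20 in mKO SOL. Its dark values from ZT12 on all lay above its values at ZT0, ZT4 and ZT8. The amplitude was 0.63 ± 0.06 with a peak at 16.3 h in mKO SOL, against 0.47 and 14.8 h in Ctrl. Glul, glutamine synthetase, had 0.47 with a peak at 17.7 h, and Tsc22d3, the gene of the glucocorticoid-induced leucine zipper, 0.33 with a peak at 13.3 h. Further called members were Per1, Klf9, Zbtb16, Ddit4, Foxo1, Pik3r1, Cebpd, Errfi1 and Dusp1, named here to complete the count after their values were seen. Fkbp5, Klf15, Cdkn1a, Mt1, Mt2, Foxo3, Cebpb and Lcn2 did not pass the test. The median amplitude of the 20 was 0.28 in mKO SOL and 0.34 in Ctrl, against 0.08 and 0.07 over all genes.

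The palindromic site of the glucocorticoid receptor, GAACA and TGTTC with 3 bases of any kind between them, was searched on both strands. It stood in the promoter windows of 4 of 15651 genes (0.0256%), among them Sgk1. The window of Sgk1 also held a CACGTG. The stretch around the receptor site is shown, with that site in capitals.
Sgk1, chr10:21993682-21993734, plus strand: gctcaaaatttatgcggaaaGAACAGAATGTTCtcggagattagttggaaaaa

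Fasting and FoxO factors raise a further set of genes in muscle, and mice eat little in the light. Of 19 measured, 8 were called (42.1%, against 4.98% of all genes), 6 of the 8 with peaks in the light phase, where 517 of the 1007 called genes had theirs. Fbxo32, the muscle ubiquitin ligase atrogin-1, averaged 10.43, 10.74, 10.99, 10.73, 10.05 and 10.10 from ZT0 to ZT20 in mKO SOL, with an amplitude of 0.48 ± 0.06 and a peak at 7.08 h, against 0.33 in Ctrl. Pdk4, which shuts pyruvate dehydrogenase, had 0.46 ± 0.07 with a peak at 8.94 h, against 0.54 and 5.92 h in Ctrl. Trim63, Ppargc1a and Cpt1b were among the 11 that did not pass. Of 17 genes of insulin and feeding, 2 were called (11.8%). Ppp1r3c, which brings a phosphatase to glycogen, averaged 11.94 at ZT20 and 10.56 at ZT8, an amplitude of 0.67 ± 0.06 with a peak at 20.5 h, and Acaca, acetyl-CoA carboxylase, had 0.28 with a peak at 21.0 h, a call lost in 11 of the 18 fits without 1 mKO animal. One of 11 sterol genes was called, Insig1, a brake on sterol synthesis, with 0.33 and a peak at 4.80 h (9.09%).

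Of 20 heat shock and temperature genes, 3 were called (15%, against 4.98% of all genes). Hspa1a, an inducible HSP70, averaged 10.71, 10.16, 9.83, 10.26, 11.36 and 11.10 from ZT0 to ZT20 in mKO SOL, an amplitude of 0.73 ± 0.08 with a peak at 18.9 h. In Ctrl it had 0.39 with a peak at 20.4 h, and the difference of 0.34 ± 0.12 was not called (adjusted p 0.837). Its cochaperone Dnajb4 had 0.32 with a peak at 18.3 h. Cirbp, a protein induced by cold, had the opposite phase, with 0.20 and a peak at 6.20 h. The other 17, among them Hspa8, Hsp90aa1 and Hsph1, did not pass.

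Of 20 immediate early and activity genes, 5 were called (25%, against 4.98% of all genes). All 5 had peaks in the dark phase, where 490 of the 1007 called genes had theirs. Atf3, a stress-induced transcription factor, averaged 9.52 ± 0.60 at ZT16 (SD, n = 3) and 7.71 at ZT8 in mKO SOL, an amplitude of 0.76 ± 0.13 with a peak at 18.6 h. Rcan1, an inhibitor of calcineurin, had 0.50 with a peak at 21.3 h, and Jun 0.28 with a peak at 14.8 h. Fos, Egr1 and Nr4a1 were among the 15 that did not pass. Of 17 genes of SRF and actin signalling, 3 were called (17.6%). Ccn2, a matricellular growth factor, had 0.72 ± 0.08 with a peak at 15.9 h and Ccn1, of the same family, 0.37 with a peak at 21.7 h. The SRF coactivator gene Mrtfa had 0.25 with a peak at 6.36 h. The call of Ccn1 was lost in 4 of the 18 fits without 1 mKO animal. Of 18 genes of the unfolded protein response, 2 were called (11.1%), Herpud1 and Manf, each with an amplitude of 0.18, and the call of Herpud1 was lost in 7 of the 18 such fits.

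Structural genes were called at shares near the 4.98% of all genes. One of 14 slow fibre genes was called, Pln, the inhibitor of the calcium pump, with 0.74 ± 0.17 and an adjusted p of 0.031 (7.14%). One of 15 fast fibre genes was called, Gpd1, with 0.24 ± 0.06 and an adjusted p of 0.0487, and 1 of 19 collagen and matrix genes, Eln, elastin, with 0.17 (5.26%). The summed signal of the fast fibre list lay between 16.3 and 16.6 on the log2 scale over the 18 arrays, and that of the slow fibre list between 16.3 and 16.6. Their part in the waves of Pln and Gpd1 was not tested. Of the 18 fits without 1 mKO animal, 7 lost the call of Pln, 13 that of Gpd1 and 15 that of Eln. Of 12 kinases and ligases that act on clock proteins, only the deubiquitinase gene Usp2 was called (8.33%), with none of Csnk1d, Csnk1e, Gsk3b, Fbxw11 or Btrc.

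Markers of other cells of the muscle showed daily change in endothelium. Of 9 endothelial markers, 4 were called (44.4%, against 4.98% of all genes), with different peak times. Cldn5, a tight junction protein, had 0.36 with a peak at 2.83 h, Eng, a TGF-β co-receptor, 0.30 with a peak at 18.9 h, and Flt1, a VEGF receptor, 0.18 with a peak at 15.2 h. Kdr, named after its values were seen, completed the 4. Pecam1, Cdh5, Tek, Tie1 and Emcn did not pass, and the summed signal of the 9 lay between 12.7 and 13.1 on the log2 scale. Of the other cell type lists, none of 11 fibroblast and tendon, 8 macrophage, 8 lymphocyte and granulocyte, 4 erythroid, 7 adipocyte and 5 satellite cell markers was called (0%). These were 43 distinct genes, 4 of which had an unadjusted p under 0.05 by limma, against 4157 of all 20239 genes. In a set of this size the 0% is not shown to lie below the 4.98% of all genes. Acta2 (0.24) was called among 8 smooth muscle and Pmp22 (0.15) among 4 Schwann cell markers, calls lost in 3 and 12 of the 18 fits without 1 mKO animal.

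Genes called in both genotypes mostly peaked at similar times of day. The mKO and Ctrl arrays share no animal, but their series fall on the times of day in part alike. In both genotypes all animals at ZT0 and ZT4 were BM3 and all at ZT12 were BM2 or BM2*. The mix of series was also the same at ZT8, and it differed at ZT16 and ZT20. The part of series in the shared peak times was not tested. Of the genes called in mKO SOL, 480 were also called in Ctrl SOL, which is 47.7% of the mKO calls and 53.1% of the Ctrl calls. For 462 of the 480 (96.3%) the peaks lay within 3 h of each other, against 42.1% of all genes. Peaks in mKO were earlier for 330 of the 480, with a median shift, mKO minus Ctrl, of -0.52 h and quartiles of -1.39 h and 0.19 h. With the BM3 animals alone, 11 mKO and 12 Ctrl arrays, the median shift was -0.65 h and 321 were earlier. These BM3 sets cover unlike times. Neither has ZT12, mKO has 3 arrays at ZT16 and 0 at ZT20, and Ctrl has 1 at ZT16 and 3 at ZT20. The part of these times in any BM3 shift given here was not tested. The median shift was -1.28 h for 105 genes outside the clock lists with Ctrl peaks from ZT18 to ZT24, -0.71 h for 171 with peaks from ZT6 to ZT12, -0.26 h for 126 from ZT12 to ZT18 and 0.34 h for 57 from ZT0 to ZT6. With the BM3 animals alone these values were -1.60 h, -1.02 h, -0.13 h and 1.07 h in the same order, and the difference between these parts of the day was not tested. The 21 clock genes called in both had a median shift of -0.11 h over all animals and -0.66 h in the BM3 animals. The median amplitude of the 480 was 0.27 in mKO and 0.29 in Ctrl, and it was larger in mKO for 179.

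The 527 genes called in mKO SOL and not in Ctrl SOL do not form a set shown to differ. None of them was called for a difference in rhythm, where 0.0395% of all genes were (8 of 20239). By limma, 128 of the 527 had an unadjusted p under 0.05 for it, against 1065 of all 20239 genes. The choice of genes called in mKO and not in Ctrl raises that share. For 369 of the 527 (70.0%) the fitted Ctrl peak lay within 3 h of the mKO peak. Their median amplitude was 0.19 in mKO and 0.12 in Ctrl, and the choice of genes by their call in mKO raises the mKO value.

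All 8 genes whose rhythm differed between the genotypes had the smaller amplitude in mKO. Besides Arntl these were Lrrc30, Rxrg, Ptpn4, Tbc1d1, Slc41a3, Dyrk2 and Ppp1r3c. Rxrg, the retinoid X receptor γ, averaged 9.29, 9.21, 9.20, 9.03, 9.23 and 9.20 from ZT0 to ZT20 in mKO SOL, an amplitude of 0.08 ± 0.03 against 0.38 in Ctrl (difference in rhythm, limma, adjusted p 0.000616). Lrrc30 had values of 10.74, 10.65 and 10.74 at ZT0 and 10.50, 10.30 and 10.38 at ZT12 in mKO SOL, against 10.53, 10.45 and 10.70 at ZT0 and 9.20, 8.65 and 9.31 at ZT12 in Ctrl SOL. The genotypes overlapped at ZT0 and did not at ZT12, where mKO was higher. The amplitude of Lrrc30 was 0.21 in mKO and 0.76 in Ctrl (adjusted p 4.79e-05). Tbc1d1, a regulator of glucose uptake, had 0.05 ± 0.04 in mKO and 0.37 in Ctrl, and was not called in mKO (adjusted p 0.692). Ptpn4, a tyrosine phosphatase, had 0.16 in mKO and 0.45 in Ctrl, the transporter gene Slc41a3 0.22 in mKO and 0.55 in Ctrl, the kinase gene Dyrk2 0.31 in mKO and 0.69 in Ctrl, and Ppp1r3c 0.67 in mKO and 0.98 in Ctrl. The count of 8 was 3 without mKO ZT16 replicate B, 3 without mKO ZT16 replicate C, 4 without Ctrl ZT16 replicate C, 13 without Ctrl ZT16 replicate A and 0 with the BM3 animals alone, where 1296 genes had an unadjusted p under 0.05 by limma. Of the 36 fits without 1 animal, Arntl, Lrrc30 and Rxrg were called in every one, while the call was lost for Ptpn4 in 2 (without mKO ZT16 replicate B or C), Tbc1d1 in 5, Slc41a3 in 7, Dyrk2 in 14 and Ppp1r3c in 25. At ZT16 all 3 mKO animals were BM3, against 1 of 3 Ctrl animals, and at ZT20 all 3 mKO animals were BM2 and all 3 Ctrl animals BM3, so that genotype and series cannot be told apart at ZT20. In BM3 animals alone the size of the difference for Arntl was 0.69, against 0.75 in all animals, as the length of the difference between the fitted waves on the log2 scale.

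**Figure D3:**
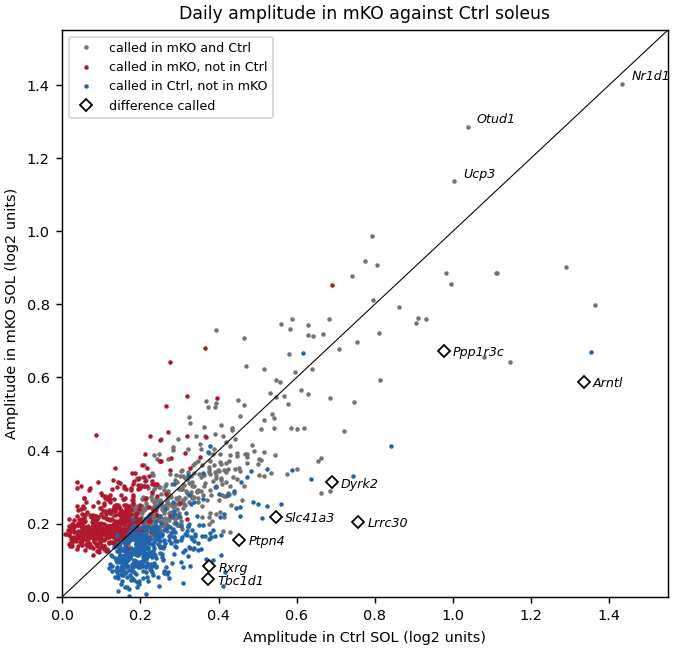
Amplitude of the 24 h cosine in mKO SOL against that in Ctrl SOL, in log2 units, for genes called in either, with 1 point per gene and the line of equal amplitude. The 8 genes called for a difference (diamonds) all lie below the line, among them Arntl at 0.59 in mKO and 1.34 in Ctrl, while Nr1d1 lies near it at 1.40 in mKO and 1.43 in Ctrl.

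None of the genes called for a difference in rhythm had the larger amplitude in mKO. That test takes the size and the timing of a wave together. Among called mKO genes with the larger amplitude in mKO, the 8 with the smallest p of that test were Smtnl2, Fhl3, Cmbl, Slc37a4, Klhl33, Plcd4, Neurog3 and Olfr876. Their adjusted p ran from 0.0906 for Smtnl2 to 0.471. The amplitudes of Klhl33 were close, 0.49 in mKO SOL and 0.46 in Ctrl, with peaks at 12.4 h and 15.2 h. Fhl3, a LIM domain protein of muscle, averaged 11.98 at ZT8 and 11.37 at ZT20, an amplitude of 0.27 ± 0.04 in mKO SOL against 0.05 in Ctrl (adjusted p 0.0985). Smtnl2, a smoothelin-like protein, had 0.24 ± 0.04 with a peak at 9.29 h in mKO SOL, against 0.14 and 22.7 h in Ctrl. The signals of Neurog3 and Olfr876, 4.78 and 4.51 on average, lay low on the scale of the array, whose median gene had 6.75, and their cosine calls were lost in 6 and 4 of the 18 fits without 1 mKO animal, as was that of Slc37a4 in 4.

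The shapes of a few genes fitted a single wave poorly, though no departure passed the adjusted threshold. Lpar6, a receptor for lysophosphatidic acid, averaged 8.14, 8.32, 8.46, 7.77, 8.51 and 8.26 from ZT0 to ZT20 and was called by time as a factor (adjusted p 0.00896) but not by the cosine (adjusted p 0.9). Its mean at ZT12, a time without BM3 animals, stood below the others. Tiparp, an ADP-ribosyltransferase, and Gadd45g, of a stress-induced family, were instead high at ZT12, with means of 8.56 and 8.44, against 7.63 to 8.04 and 7.04 to 7.62 at the other times. Lrrc52, a subunit of potassium channels, was low at ZT12, with 9.34 against 10.12 to 10.89. The other 4 genes by that rule were Itga6, Olfr392, Avpr1a and Gstt2, of which Gstt2, a glutathione transferase, was also called by the cosine with 0.46. The cosine call of Gadd45g was lost without any 1 of the ZT4 or ZT12 animals.

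The TA of the same 18 mKO animals gives a second muscle at each time. Of the 1007 genes called in mKO SOL, 171 were also called in mKO TA, 17.0% of the SOL calls and 64.3% of the TA calls, and 156 of the 171 had peaks within 3 h. Their median amplitudes were 0.33 in SOL and 0.32 in TA. The share of all genes with SOL and TA peaks within 3 h was not computed. The difference between the muscles within animals was called for 39 genes (0.193%). The amplitude was larger in SOL for 34 of the 39, against 11640 of 20239 genes tested. Of the core clock, Arntl, Nr1d1 and Bhlhe41 were among the 39. Nr1d1 had 1.40 in mKO SOL and 0.75 in mKO TA, with peaks at 7.09 h and 6.57 h (adjusted p 0.00296), and Bhlhe41 0.53 in mKO SOL and 0.17 in mKO TA (adjusted p 0.00411). The Arntl wave was 0.59 with a peak at 0.70 h in mKO SOL and 0.33 with a peak at 21.8 h in mKO TA (adjusted p 0.00953).

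Other genes called for a difference between the muscles had a larger fitted amplitude in SOL than in TA. Fzd9, a Wnt receptor, had 10.88, 10.44 and 10.54 at ZT0, 10.88, 10.49 and 10.64 at ZT4, 10.75, 10.07 and 9.77 at ZT8, 9.76, 9.42 and 9.25 at ZT12, 9.73, 9.63 and 9.89 at ZT16 and 10.67, 10.43 and 10.80 at ZT20 in mKO SOL. All values at ZT0, ZT4 and ZT20 lay above all values at ZT12 and ZT16. The level of Fzd9 was 10.22 in mKO SOL and 7.67 in mKO TA, and its amplitude 0.62 ± 0.09 in SOL and 0.15 in TA (adjusted p of the difference 0.000218). Tmem171 had 0.64 in mKO SOL and 0.07 in mKO TA (adjusted p 0.00322), at levels of 8.60 and 6.86. The part of the lower levels in TA in these differences was not tested. Rnf122, a RING finger ubiquitin ligase, had similar levels, 8.09 in mKO SOL and 8.63 in mKO TA, and amplitudes of 0.41 in SOL and 0.13 in TA (adjusted p 0.000218). Adamts1 had 0.88 in SOL and 0.41 in TA (adjusted p 0.00411). Mamstr, a coactivator of MEF2 and SRF, had 0.52 ± 0.10 with a peak at 10.7 h in SOL and 0.37 ± 0.08 with a peak at 16.7 h in TA (adjusted p 0.00296). The test takes size and timing of the wave together, and for Mamstr a difference in size alone was not tested.

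The waves larger in TA were few. Pdk4 had an amplitude of 0.46 in mKO SOL and 1.01 in mKO TA, with peaks at 8.94 h and 9.62 h (adjusted p 0.00296). The other 4, named after their values were seen, were Crhr2, Myod1, Epha7 and Dusp7. The count of 39 was 23 without mKO ZT4 replicate A, 21 without mKO ZT4 replicate B, 23 without mKO ZT16 replicate B, 25 without mKO ZT16 replicate C, 22 without mKO ZT20 replicate B and 0 with the BM3 animals alone, where 1542 genes had an unadjusted p under 0.05 by limma.

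**Figure D4:**
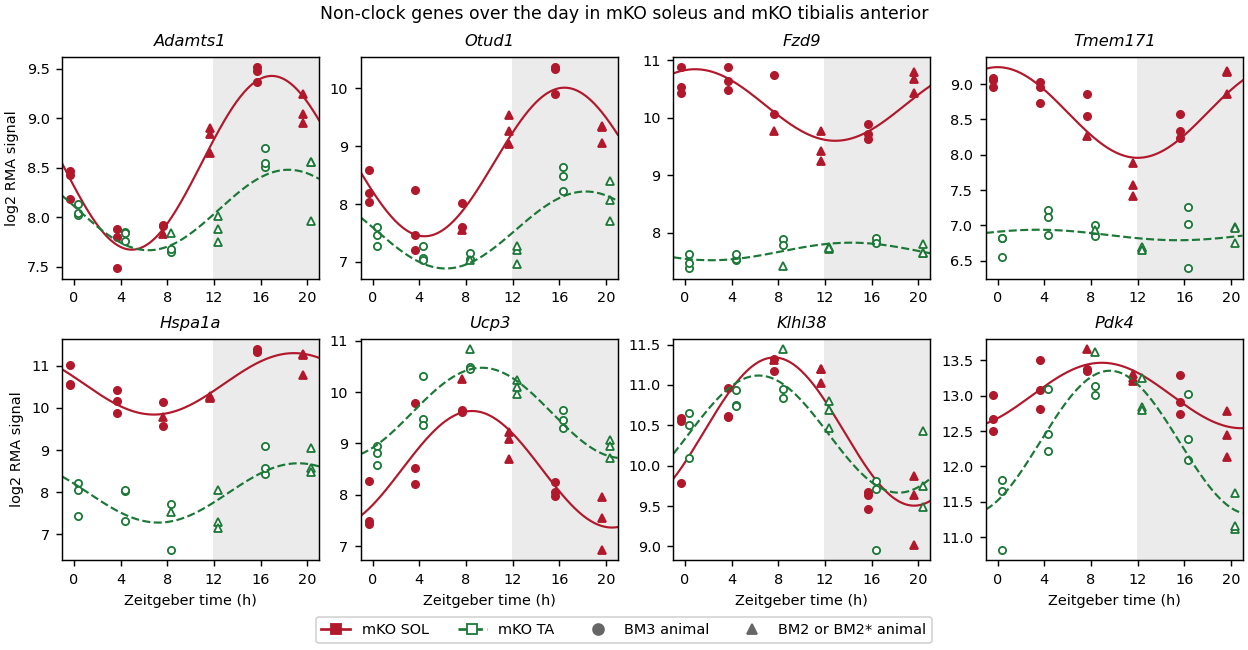
Log2 RMA signal against Zeitgeber time for 8 genes outside the clock in the mKO animals, with 1 point per animal, filled red for SOL and open green for TA, circles for BM3 and triangles for BM2 or BM2* animals, and fitted 24 h cosines as lines (solid SOL, dashed TA). Fzd9 and Tmem171 vary in SOL (amplitudes 0.62 and 0.64) and little in TA (0.15 and 0.07), while Pdk4 varies more in TA (1.01) than in SOL (0.46).

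The time of peak could be compared between disjoint sets of mKO SOL arrays, the 11 of BM3 animals and the 7 of BM2 and BM2* animals. These sets share no time but ZT8. The BM2 and BM2* set held 1 array at ZT8 and all 3 at ZT12 and at ZT20. A 24 h cosine with a level passes exactly through any 3 time means. The BM2 and BM2* peaks therefore depend on the 1 array at ZT8, and the shape of a wave cannot be tested in that set. Of the 203 genes called in BM3 animals, 143 (70.4%) had a BM2 and BM2* peak within 3 h, against 31.9% of all genes, and 36 were called in both sets. Nr1d1 peaked at 7.07 h in BM3 and at 7.81 h in BM2 and BM2* animals, Adamts1 at 17.1 h and 16.6 h, and Hspa1a at 18.4 h and 19.0 h. Others called in both sets lay over 3 h apart, such as Ciart at 9.30 h in BM3 and 12.9 h in BM2 and BM2* animals, and Angptl4 at 6.96 h and 3.87 h. Of the 1007 genes called over all 18 arrays, 773 (76.8%) had peaks within 3 h in the 2 sets, a share that the choice of genes by a fit to both sets raises.

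**Figure D5:**
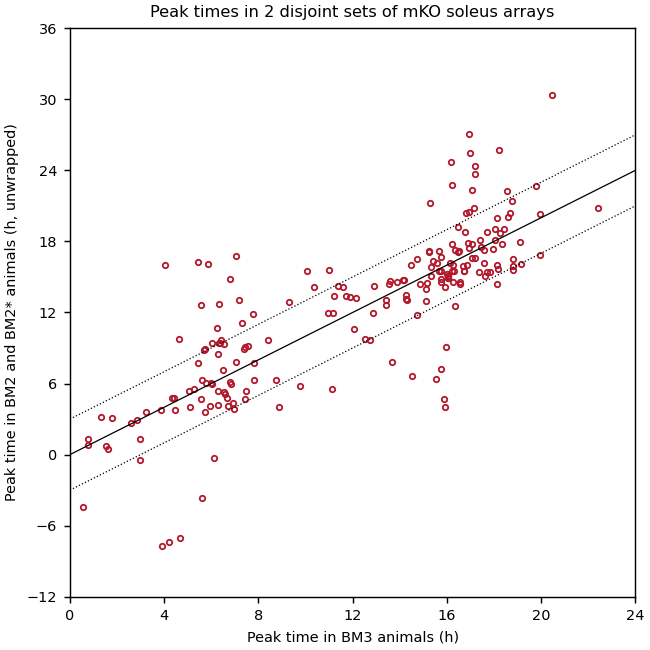
Peak time fitted in BM2 and BM2* animals (7 arrays), unwrapped past 24 h where that is nearer, against peak time in BM3 animals (11 arrays) for the 203 genes called in BM3 mKO SOL, with 1 point per gene. The solid line marks equal times and the dotted lines 3 h on each side, between which 143 points lie. The BM2 and BM2* arrays lie at 3 times only, with 1 array at ZT8, and a 24 h cosine passes exactly through 3 time means.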

How the data were processed

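Each array was 1 muscle of 1 animal, so replicates are separate animals. The deposited values are log2 signals on which RMA had been run, as the submitters' processing notes state without a version, and no value was rescaled or filtered. Of 21225 probe sets, 20239 carried 1 symbol in the platform annotation, all matched to the RefSeq gene table of GRCm38.p6. The remaining 986 were left out. Tests were run with limma 3.58.1 (R 4.3.3) as moderated F tests on cosine and sine of a 24 h period, on time as a factor, on departure from the cosine, and on the differences of rhythm between genotypes and, within animals, between muscles. Adjusted p-values are by Benjamini-Hochberg over all 20239 genes, with a threshold of 0.05. Fits were tested on simulated data. Errors are SE of the amplitude or SD over the 3 animals of a time.

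Genes named are all core clock and output members, the 15 smallest p, the 10 largest called amplitudes outside the clock, 8 each for departure, for difference in either direction and for the muscles, and up to 3 called members of each other list. Further called genes are marked in the text as named after their values were seen, and members of lists that did not pass are named as examples chosen in the same way. The members and the lists were chosen with earlier results of these data known. Promoter and microRNA sequences come from RefSeq tables of GRCm38.p6. Motifs were searched as plain letters.

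Replicate letters did not pair animals by the rule that every pair correlate above 0.1. Residuals of mKO SOL arrays with 1 letter at different times passed 0.1 in 12 of 45 pairs (median r 0.01), those with different letters in 17 of 90 (median r -0.01), and mKO with Ctrl SOL arrays of 1 letter and time in 9 of 18 (median r 0.08).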

Additional observations from a re-analysis of the deposited data

Results flagged for a closer look

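The rhythms of 8 genes differed between mKO and Ctrl SOL by the test of the difference itself, with these limma adjusted p-values: Arntl 1.33e-05, Lrrc30 4.79e-05, Rxrg 0.000616, Ptpn4 0.0155, Tbc1d1 0.0249, Slc41a3 0.025, Dyrk2 0.0315 and Ppp1r3c 0.0459. In each of them the amplitude was smaller in mKO.

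The rhythms of the named genes differed between SOL and TA of the same mKO animals with these limma adjusted p-values: Rnf122 0.000218, Fzd9 0.000218, Nr1d1 0.00296, Mamstr 0.00296, Pdk4 0.00296, Tmem171 0.00322, Bhlhe41 0.00411, Adamts1 0.00411, Tiparp 0.00411, Arntl 0.00953, Slc46a3 0.00953, Otud1 0.0236, Sgk1 0.0236, Mylk4 0.0285 and Tef 0.0351. The amplitude was larger in SOL in all of these but Pdk4. With the BM3 animals alone no gene passed the threshold in either comparison, and 1296 and 1542 genes had an unadjusted p under 0.05 by limma. No search for outlying samples was made within groups of 3 animals. Over the 18 mKO SOL arrays, the median correlation of an array with the other 17 was lowest for ZT12 replicate B, and the fits without it are among those that leave out 1 animal.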

How the results depend on the processing

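The cosine called 1007 genes, and 440 with the 3 identifier series as levels, 203 in BM3 animals alone, 104 in BM2 and BM2* animals alone, 406 at an adjusted p under 0.01, and 497 without ZT20 and 523 without ZT12, both chosen after seeing the data. Leaving out 1 animal gave 703 to 1253. Time as a factor called 398 genes, 706 with array weights, 186 with 3 series levels, 133 in BM3 animals alone, 183 at 0.01, 246 without ZT20, 251 without ZT12 and 299 to 404 without 1 animal. Departure from the cosine was called for 0 genes, 3 with series in 2 levels, 4 with 3 levels, 2 in BM3 animals alone and 0 to 1 without 1 animal (1 without mKO ZT0 replicate C). The difference from Ctrl was called for 8 genes, 13 with array weights, 0 in BM3 animals alone and 3 to 13 without 1 animal. The difference between muscles was called for 39 genes, 72 with array weights, 79 among genes above the median level alone, 23 with 2 series levels, 9 with 3 levels, 0 in BM3 animals alone and 21 to 43 without 1 animal. The cause of these changes was not tested, beyond the fewer arrays of a subset. Series as a random block gave 1047, 374, 0, 8 and 46 calls in the same order.

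With the replicate letter as a block, that is with same-lettered animals treated as a pairing, the counts were 970, 364, 0, 6 and 51. The labels do not say what a letter shares. The letters did not pair the animals by the rule given above, which does not exclude a weaker pairing.

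Of 92 named genes, 80 were called by the cosine. Under no alternative tried did the peak of a gene that stayed called move by over 6 h. BM2 and BM2* animals alone kept the call of all but 43, BM3 animals alone all but 37, 3 series levels all but 25, and each fit without 1 animal all but 3 to 11.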

Other observations

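Gene models without a name, counted and not described, made up 32 of the 1007 genes called by the cosine in mKO SOL. Among genes called, the median level was 7.80 on the log2 scale, against 6.75 for all genes, and 369 had an amplitude over 0.25.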
